A study of Mus musculus with 16 samples.

Results

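Interferon-stimulated genes are the genes that cells switch on when they sense interferons. The 44 genes described here were chosen by name, and all 44 were found in the deposited table of 57143 genes. They were followed in left ventricular RNA from C57BL/6 males at 0h, 3h, 24h and 7d after an abdominal operation under sevoflurane, an inhaled anaesthetic. Each time had 4 libraries, and every library carries the label of surgery, those at 0h included. Whether 0h, the earliest time, was an operated or an unoperated group is not stated beyond that label. The libraries were made from polyA RNA with a directional kit and held 8313655 to 12893551 counts each. The labels do not say that the libraries of a time came from separate animals, so the p-values below measure the spread between these samples, which may be technical.

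Type I interferons bind the receptor IFNAR, whose kinases JAK1 and TYK2 phosphorylate STAT2. A complex that holds STAT2 and IRF9 binds a short element in promoters, the interferon-stimulated response element. Type II interferon (interferon gamma) acts through its own receptor and a different promoter element, the gamma-activated site. The products of the Ifit, Oas and Mx families act against viral RNA and particles. Guanylate-binding proteins (GBPs) and immunity-related GTPases (IRGs) attach to the vacuoles of intracellular microbes and respond strongly to interferon gamma in the mouse. In the infarcted mouse heart, leukocytes are known to mount a type I interferon response.

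Promoter stretches of 8 of the genes show the letters that this biology turns on. A RefSeq table of GRCm38.p6 promoters, each from 250 bases before to 50 bases after a gene's start, held 31 of the 44 genes. The stretches are written 5′ to 3′ on the gene's strand, and capitals mark letters of a paired GAAA (GAAA, any 2 bases, then GAAA again), a core of the interferon-stimulated response element, or of TTCNNNGAA, a core of the gamma-activated site. Both motifs were searched on both strands, so a paired GAAA also appears as TTTC, any 2 bases, then TTTC. Ifit3 and Ifit3b are shown because their stretches are identical (74 of 74 bases), and Igtp and Irgm2 because theirs hold both motifs and are equal at 49 of 51 bases. The stretches were cut around the motifs. Over the whole windows of Ifit3 and Ifit3b, 201 of 268 bases compared without gaps were equal (75.0%).
Ifit1 (chr19:34640770-34640828, plus strand): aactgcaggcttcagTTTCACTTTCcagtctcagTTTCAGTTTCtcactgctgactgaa
Ifit3 (chr19:34583358-34583431, plus strand): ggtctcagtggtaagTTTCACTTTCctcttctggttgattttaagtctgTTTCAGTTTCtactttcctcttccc
Ifit3b (chr19:34607754-34607827, plus strand): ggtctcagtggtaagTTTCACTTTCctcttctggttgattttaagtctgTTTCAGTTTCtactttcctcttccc
Isg15 (chr4:156200860-156200911, minus strand): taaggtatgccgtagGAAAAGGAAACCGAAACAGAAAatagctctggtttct
Bst2 (chr8:71537572-71537623, minus strand): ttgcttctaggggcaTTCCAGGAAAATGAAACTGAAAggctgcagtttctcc
Gbp3 (chr3:142559984-142560029, plus strand): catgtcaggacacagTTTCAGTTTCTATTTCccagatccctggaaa
Igtp (chr11:58199496-58199546, plus strand): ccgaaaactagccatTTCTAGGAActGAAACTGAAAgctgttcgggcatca
Irgm2 (chr11:58214887-58214937, plus strand): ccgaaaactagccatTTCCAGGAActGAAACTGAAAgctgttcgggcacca
In Bst2 the 2 motifs shared letters, since its TTCNNNGAA ends inside the first paired GAAA. The paired GAAA was found in 18 of the 31 genes with a promoter (58.1%), against 3.99% of the 27025 genes of the promoter table. Among the GBP and IRG genes with a promoter 7 of 7 held it, and among the Ifit, Oas and Mx genes with a promoter 4 of 7. The promoter table held no window for Gbp6, Gbp9, Iigp1, Oas2, Mx1 or Mx2, so their promoters were not examined. TTCNNNGAA was found in 11 of the 31 genes (35.5%), against 9.55% of all genes of the table. The windows of Ifit2, Irf7, Dtx3l, Samd9l and Trim25 held no paired GAAA, which says only that these letters are absent from those windows.

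All 44 genes passed the filter for testing, a mean of 0.5 TPM (transcript abundance scaled to gene length and library size) or more over the 16 libraries. Levels below are the authors' TPM. Fold changes come from the raw counts after TMM scaling, with their standard error (SE), and p-values come from edgeR's quasi-likelihood F test, adjusted by Benjamini-Hochberg over the 16866 genes tested. A gene is called changed at an adjusted p under 0.05. Both scales differ slightly: over all genes tested the median difference in log2(TPM + 1) was -0.15 at 3h, -0.192 at 24h and -0.08 at 7d relative to 0h, and the median log2 fold change after TMM scaling was 0.004, -0.01 and 0. A gene at the same TPM at 2 times can therefore have a small positive fold change.

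Libraries of a time differed in ways that touch these genes. In 24h replicate 2, 41 of the 44 genes had their highest TPM of the 4 libraries at 24h, so counts at 24h are given with and without it. Its summed macrophage markers (12 genes) stood at 1024 TPM, against 662 to 961 TPM in the other 24h libraries. Its T and NK cell markers (12 genes) stood at 6.91 TPM, against 2.99 to 4.99 TPM. Its endothelial markers (596 TPM, against 423 to 567 TPM) and fibroblast markers (709 TPM, against 585 to 698 TPM) were also the highest at 24h. So were its monocyte markers. Its neutrophil (115 TPM) and B cell markers (3.66 TPM) lay within the range of the other 24h libraries, and its cardiomyocyte markers were the lowest. The count of 41 is on the TPM scale, and the TMM factor of this library was 1.048, against 0.911 to 0.968. The same count over all genes tested was not made, so whether it is particular to these genes is not known. The atrial gene Myl7 stood at 63.8, 126, 6.97 and 159 TPM at 24h, against 0, 1.10, 9.59 and 0 TPM at 0h, at 0.977, 2.73, 146 and 8.39 TPM at 3h, and at 0.504 to 0.844 TPM at 7d. The summed atrial markers (5 genes, Myl7 among them) overlapped between times. They came to 479 to 1004 TPM at 24h, 453 to 1465 TPM at 0h, 256 to 738 TPM at 3h and 534 to 2762 TPM at 7d. Neutrophil markers (12 genes) summed to 151 to 576 TPM at 3h and 69.4 to 333 TPM at 24h, against 11.1 to 13.2 TPM at 0h, where Ly6g was at 0 in all 4 libraries. Hepatocyte markers (10 genes) summed to 20.3 to 121 TPM at 3h, against 11.4 to 17.1 TPM at 0h, where albumin (Alb) was at 0 in all but replicate 4. The part of these in the results below was not tested, apart from the fits named beside them. In bulk tissue, fewer cells of a type and less RNA per cell cannot be told apart.

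**Figure D1:**
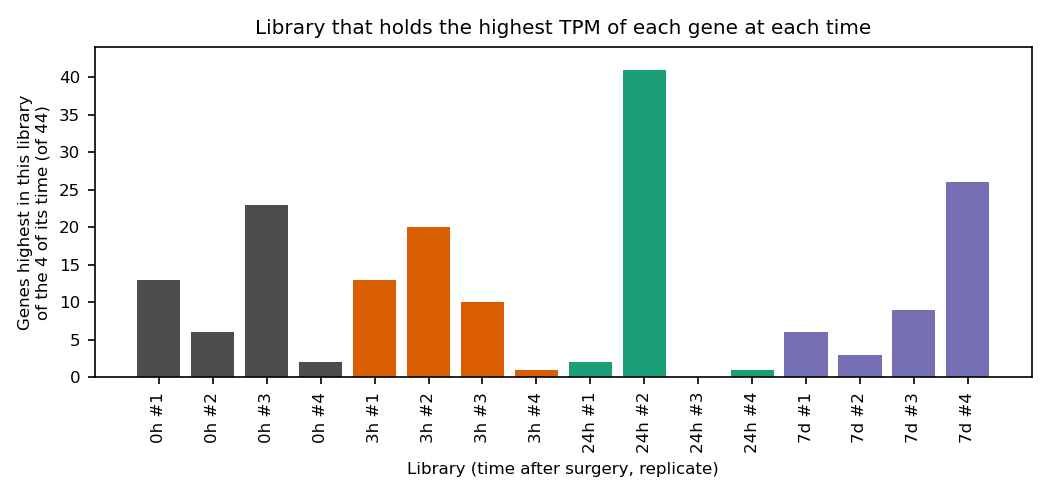
For each of the 16 libraries (x axis), the bar counts the genes, of 44, whose TPM was the highest of the 4 libraries of that time. The bar of 24h replicate 2 reaches 41, and 24h replicate 3 held no gene's highest value. No such count was made over all genes tested.

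The genes called by edgeR over all libraries were lower at 3h and went both ways at 24h. At 3h, 4 of the 44 genes were lower than at 0h and 0 higher, 9.09% of them, where 5.31% of all genes tested were called in that comparison (2.01% higher and 3.3% lower). Those 4 were Gbp9, Ifit2, Dtx3l and Samd9l. At 24h, 3 genes were higher than at 0h (Iigp1, Gbp6 and Ifitm3) and 5 lower (Eif2ak2, Gbp3, Ifit2, Bst2 and Dtx3l). These 8 are 18.2% of the genes, the same share as the 18.2% of all genes called (9.53% higher and 8.62% lower). At 7d, 0 of the 44 genes passed the edgeR test against 0h, where 1.12% of all genes were called (0.219% higher and 0.901% lower). At an unadjusted p under 0.05, 8 genes (18.2%) passed at 7d, against 16% of all genes. DESeq2 called 1 gene higher at 7d, Irf7, where it called 2.69% of all genes tested.

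Between the later times, 24h against 3h gave 1 gene higher, Iigp1, and 0 lower, where 7.78% of all genes were called (4.09% higher and 3.7% lower). At 7d against 24h, 4 genes were higher (Ifit3, Ifit2, Irf7 and Bst2) and 1 lower (Iigp1), 11.4% of the genes, where 8.44% of all genes were called (3.84% higher and 4.6% lower). In 7d against 3h, 2 genes were higher (Ifit2 and Ifit3) and 2 lower (Trim25 and Oas2), where 4.87% of all genes were called (1.99% higher and 2.88% lower). A test of any change over the 4 times called 10 of the 44 genes (22.7%), against 20.7% of all genes. The comparisons share libraries, those against 0h the same 4, so their counts are not independent of each other.

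The median log2 fold change of the 44 genes against 0h was -0.12 at 3h, -0.25 at 24h and -0.01 at 7d. Without 24h replicate 2, 1 gene was higher at 24h than at 0h and 13 were lower, where 10.3% and 8.24% of all genes were called in those directions, and the median was -0.42. The 13 were Gbp7, Bst2, Gbp3, Eif2ak2, Ifit1, Dtx3l, Stat2, Ifit2, Gbp2, Cmpk2, Ifit3, Samd9l and Oasl2. However, 24h replicate 2 was picked because most of these same genes stood highest in it. Leaving it out therefore lowers their 24h means by construction. Fits without 24h replicate 2, here and for single genes and groups below, are thus no independent evidence of lower levels at 24h. Leaving out that library also gave 1 gene higher and 4 lower in 24h against 3h, where 3.78% and 2.77% of all genes were called. In 7d against 24h it gave 5 higher and 1 lower, where 3.42% and 4.68% of all genes were called. The 24h count against 0h fell instead when single other libraries were left out, to 2 without 24h replicate 4 and to 4 or 5 without 24h replicate 1 or 0h replicate 1, 2 or 3. The count at 3h came to 0, 1 or 2 without any single library of 0h or 3h. Without 0h replicate 3, 1 gene was called higher (Ifi35) and 0 lower, where 1.11% and 1.83% of all genes were called. In that fit Ifit2, Gbp9, Dtx3l and Samd9l kept negative log2 fold changes (-0.42, -0.69, -0.48 and -0.60) but missed the threshold. Other fits also called genes higher at 3h. DESeq2 gave 1 higher (Ifi35) and 4 lower, where it called 3.39% and 4.31% of all genes. A fit of 0h and 3h alone gave 3 higher (Ifi35, Oas2 and Ifitm3) and 6 lower, where it called 8.82% and 10.1%. Ifi35, a cytosolic protein induced by interferon, had 46.1, 42.3, 42.5 and 41.6 TPM at 3h, against 31.8, 34.4, 45.2 and 36.5 TPM at 0h. All 3h libraries lay above 3 of those at 0h, and 3 of them lay below 0h replicate 3. In the edgeR fit of all libraries its log2 fold change was 0.41 (SE 0.13, adjusted p = 0.0604). At 7d against 24h the count of called genes was 3 without 24h replicate 4 or 7d replicate 3 or 4, and at 7d against 3h it was 1 or 2 without 3h replicate 1, 2 or 3 or 7d replicate 2 or 3. In 24h against 3h it was 2 without 24h replicate 3 or 4. The count of any change over time was 16 without 24h replicate 2, and 5 or 6 without 0h replicate 1 or 2, 3h replicate 1 or 2 or 7d replicate 3. Calls over all genes moved too. At 24h against 0h they came to 12.5% without 0h replicate 3, where the fit of all libraries gave 18.2%. Where no share of all genes stands beside a count, its shift cannot be told from a shift over all genes.

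Limma on log2(TPM + 1), which keeps the TPM shift, gave 1 gene higher and 12 lower at 24h against 0h, where it called 3.81% and 17.2% of all genes in those directions. Of all calls in that comparison, 18.1% were higher by limma on TPM and 52.5% by edgeR. At 3h against 0h it gave 0 higher and 3 lower genes (0.878% and 4.33% of all genes), with 16.8% of all calls higher by limma and 37.9% by edgeR. At 7d against 24h it gave 3 higher and 1 lower (4.43% and 2.17% of all genes), with 67.1% of all calls higher by limma and 45.5% by edgeR. At 7d against 0h both tools called 0 of the 44 genes, and 1.89% of all calls were higher by limma and 19.6% by edgeR.

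With Myl7 as a covariate, 4 of the 22 calls over the 6 comparisons remained: Ifit2 at 3h against 0h, 7d against 24h and 7d against 3h, and Iigp1 at 24h against 3h. Calls over all genes also fell in that fit, to 0.528% of genes at 24h against 0h. They came to 1.09% at 3h against 0h, 3.27% at 24h against 3h, 0.142% at 7d against 24h and 1.48% at 7d against 3h. Myl7 stood above 60 TPM in 3 of the 4 libraries at 24h, so this covariate is in part a term for time. The fold changes of all 22 calls kept their direction in it, and a lost call was not always a smaller fold change. At 7d against 24h the log2 fold change of Ifit3 was 1.03 with Myl7 and 0.90 without it, and at 24h against 0h that of Ifit2 was -0.92 with Myl7 and -0.53 without it. That of Gbp6 at 24h against 0h was 0.28 with Myl7 and 0.81 without it.

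**Figure D2:**
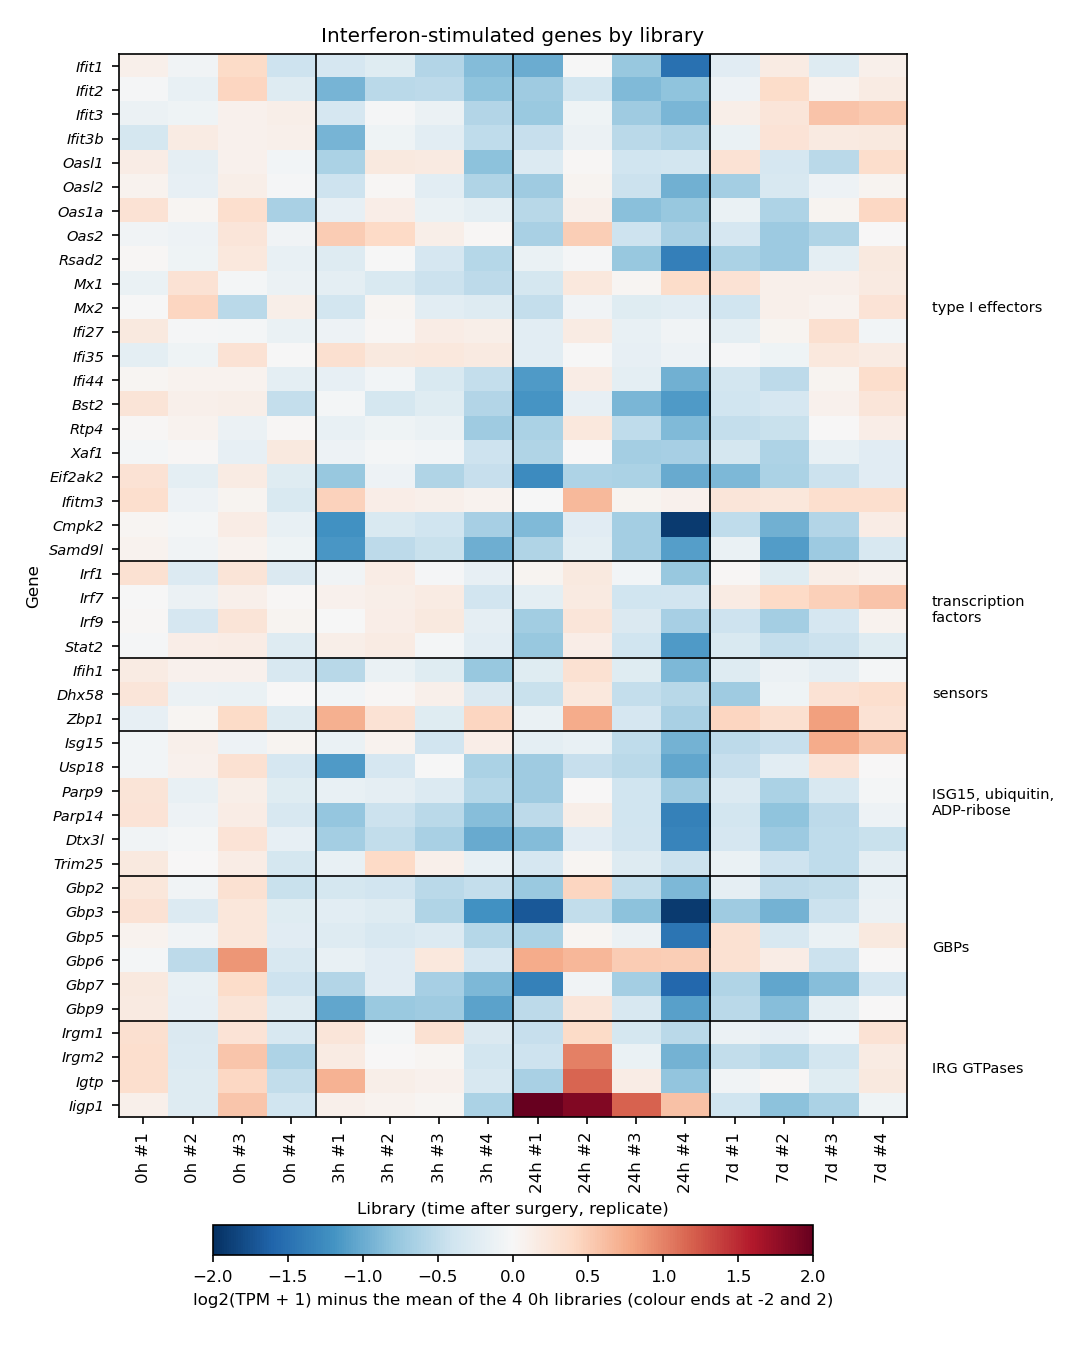
Each row is a gene, grouped by role, and each column a library. Colour gives log2(TPM + 1) minus the gene's mean over the 4 libraries at 0h, ending at -2 and 2. Iigp1 is red in all 4 libraries at 24h, while most other rows at 24h are blue in replicates 1, 3 and 4 and pale in replicate 2.

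**Figure D3:**
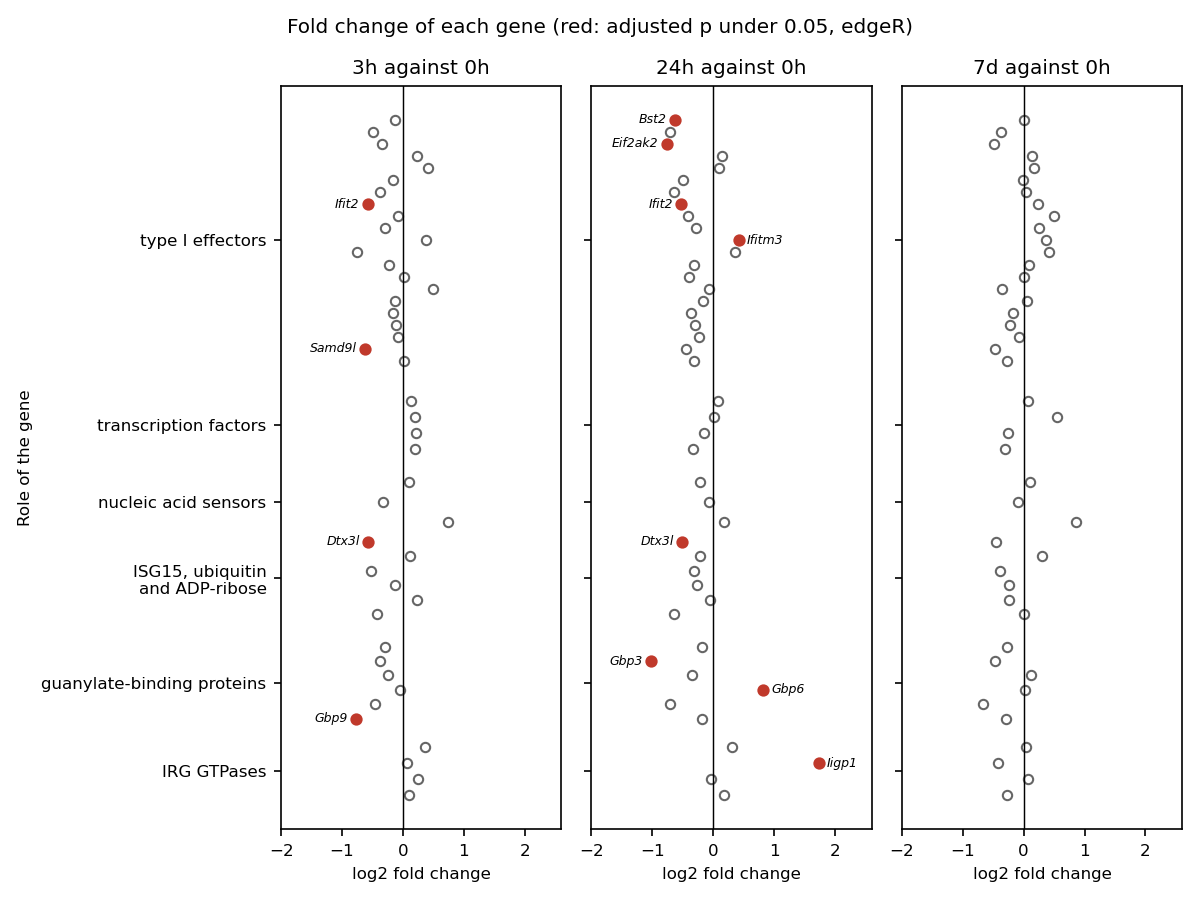
Points are the 44 genes, with the log2 fold change after TMM scaling on the x axis and rows grouped by role. Red points passed an adjusted p of 0.05 in edgeR's test and are named: 4 at 3h, 8 at 24h and 0 at 7d, each against 0h.

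The ligands themselves were almost undetected. Of 20 interferon genes in the table, those of the alpha, beta, gamma, lambda, epsilon, kappa and zeta types, none reached the filter. Summed over these genes there were 0 counts at 3h, 0 at 24h and 0 at 7d, against 3 counts at 0h. Polyadenylated interferon transcripts were thus not detectable at this depth at the later times.

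Among receptors and JAK-STAT genes 18 were tested, and 1 was higher at 3h than at 0h, 2 higher and 1 lower at 24h, and 0 called at 7d. Ifngr2, a chain of the interferon gamma receptor, had 89.2, 146, 176 and 117 TPM at 24h, against 240, 248, 249 and 274 TPM at 0h. The groups did not overlap, and its log2 fold change was -0.75 (SE 0.13, adjusted p = 0.000584). It was higher again at 7d than at 24h, by 0.58 on the log2 scale (adjusted p = 0.00505). Socs3, which inhibits JAK kinases and also responds to other cytokines, was higher at 3h than at 0h, with an adjusted p of 0.00475 and a log2 fold change of 2.92 (SE 0.46). At 24h its log2 fold change against 0h was 1.52 (SE 0.48, adjusted p = 0.0424).

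None of the transcription factors Irf1, Irf7, Irf9 and Stat2 was called against 0h at any time. At 3h all 4 had a positive log2 fold change (median 0.20), a direction that limma on log2(TPM + 1) gave for 2 of the 4. Irf7, the factor that amplifies type I interferon production, had 11.7, 10.7, 12.7 and 12.01 TPM at 0h, 12.5, 12.8, 13.3 and 8.77 TPM at 3h, 10.1, 13.5, 8.63 and 8.74 TPM at 24h, and 13.3, 15.9, 16.7 and 17.9 TPM at 7d. Its 4 libraries at 7d all lay above the 4 at 0h, with a log2 fold change of 0.54 (SE 0.15) that missed the threshold (adjusted p = 0.0775). Against 24h, Irf7 was higher at 7d by 0.53 (SE 0.15, adjusted p = 0.0309), although 24h replicate 2 reached into the range at 7d. That call was lost without 24h replicate 3 or 4 or 7d replicate 2, 3 or 4 (adjusted p 0.0505 to 0.0923), and with Myl7 as a covariate (0.359) and in a fit of the compared groups alone (0.12).

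Stat2, the partner of IRF9, had 12.8, 14.3, 14.4 and 10.8 TPM at 0h, 14.2, 14.7, 12.6 and 11.1 TPM at 3h, 7.25, 14.3, 9.61 and 5.37 TPM at 24h, and 10.4, 9.08, 9.42 and 10.8 TPM at 7d. At 24h replicate 2 lay within the range at 0h and the other 3 libraries below it, and the log2 fold change was -0.33 (SE 0.17, adjusted p = 0.176). Without 24h replicate 2 it was -0.57 and passed (adjusted p = 0.0111). Irf1, a factor that responds to interferon gamma through the gamma-activated site, had the highest mean level of the 4, with 29.5, 19.3, 28.4 and 19.2 TPM at 0h, 22.4, 26.2, 23.3 and 20.9 TPM at 3h, 24.6, 27.2, 22.7 and 13.5 TPM at 24h, and 23.9, 19.8, 25.8 and 24.9 TPM at 7d. The groups overlapped at every time.

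The Ifit genes lie together on mouse chromosome 19, and of these 4, Ifit2 and Ifit3 were called. Ifit2 (ENSMUSG00000045932, GRCm38 chr19:34550694-34576419), an RNA-binding protein that limits viral replication, had 17.6, 16.1, 24.6 and 14.8 TPM at 0h, 8.96, 12.1, 12.2 and 9.85 TPM at 3h, 10.6, 13.8, 9.27 and 9.85 TPM at 24h, and 16.6, 23.4, 18.9 and 20.3 TPM at 7d. All libraries at 3h and at 24h lay below all libraries at 0h and at 7d. The log2 fold change was -0.58 at 3h (SE 0.16, adjusted p = 0.0395) and -0.53 at 24h (SE 0.16, adjusted p = 0.0259) against 0h. Its 7d level was higher than at 24h by 0.76 (SE 0.16, adjusted p = 0.00397) and than at 3h by 0.80 (SE 0.16, adjusted p = 0.00398). Both of these last calls remained in all 17 alternatives that apply to each. The 3h call was lost without 0h replicate 1, 2 or 3 or 3h replicate 1, 2, 3 or 4 (adjusted p 0.0592 to 0.153), and without 3h replicates 2 and 3 together (0.0771). The 24h call against 0h was lost without 0h replicate 3 or 24h replicate 3 or 4 (adjusted p 0.052 to 0.118), and with Myl7 as a covariate (0.0516).

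Ifit3 (ENSMUSG00000074896, chr19:34583531-34588731), which binds and stabilises IFIT1, had 19.9, 20.4, 23.1 and 23.5 TPM at 0h, 17.02, 21.4, 19.98 and 14.2 TPM at 3h, 12.5, 20.5, 12.8 and 11.1 TPM at 24h, and 23.5, 25.96, 32.7 and 31.7 TPM at 7d. Its 7d values all exceeded those at 24h and at 3h, and overlapped those at 0h in 1 library. Against 24h the log2 fold change at 7d was 0.90 (SE 0.17, adjusted p = 0.00149), a call lost with Myl7 as a covariate (adjusted p 0.126), where the log2 fold change was 1.03. Against 3h it was 0.57 (SE 0.16, adjusted p = 0.0453), lost without 3h replicate 1, 2, 3 or 4 or 7d replicate 2, 3 or 4 (adjusted p 0.0556 to 0.151), and by limma on log2(TPM + 1) (0.059), with Myl7 as a covariate (0.111) and without 3h replicates 2 and 3 together (0.105). Its near copy Ifit3b, whose reads the counting could split between the pair, did not pass: the log2 fold change at 7d was 0.54 against 24h and 0.56 against 3h. The ratio of Ifit3 to Ifit3b TPM ran from 2.47 to 5.13 over the 16 libraries.

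Ifit1, which binds viral RNA caps, had 11.6, 10.2, 14.5 and 7.92 TPM at 0h, 8.36, 8.97, 6.91 and 5.47 TPM at 3h, 4.94, 10.7, 5.97 and 3.21 TPM at 24h, and 9.07, 12.3, 8.91 and 11.8 TPM at 7d. At 24h 3 of the 4 libraries lay below all at 0h, and replicate 2 was within that range. The log2 fold change at 24h was -0.64 (SE 0.24, adjusted p = 0.0673), and -0.97 without replicate 2 (adjusted p = 0.00762). Of the 10 Ifit, Oas and Mx genes, 0 were higher and 1 lower at 3h and at 24h against 0h, and 2 were higher and 0 lower at 7d against 24h. Of all genes, 2.01% were called higher and 3.3% lower at 3h, and 9.53% and 8.62% at 24h against 0h. At 7d against 24h it was 3.84% and 4.6%. The median log2 fold change of these 10 genes was -0.20 at 3h, -0.34 at 24h and 0.07 at 7d against 0h, and 0.41 at 7d against 24h, where medians over all genes were within 0.01 of 0. At 7d the median was -0.02 by limma on log2(TPM + 1).

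Oas2, an enzyme whose oligoadenylates activate RNase L, had 8.02, 7.77, 10.2 and 7.97 TPM at 0h, 12.4, 11.4, 9.27 and 8.55 TPM at 3h, 5.02, 12.3, 6.07 and 5.05 TPM at 24h, and 6.48, 4.70, 5.20 and 8.53 TPM at 7d. All 7d libraries lay below all 3h libraries, with a log2 fold change of -0.84 (SE 0.22, adjusted p = 0.0281). That call was lost without 3h replicate 1 or 2 or 7d replicate 1, 2 or 3 (adjusted p 0.0683 to 0.119), and by limma on log2(TPM + 1) (0.128), with Myl7 as a covariate (0.107) and without 3h replicates 2 and 3 together (0.11). Values at 24h split, with replicate 2 at 12.3 TPM and the other libraries at 5.02 to 6.07 TPM. Mx1, whose product is defective in C57BL/6 mice, averaged 0.429 to 1.06 TPM at the 4 times, with as few as 3 counts in a library, and its log2 fold change of -0.75 at 3h against 0h did not pass (adjusted p = 0.335).

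Of the other type I effectors, Eif2ak2, Bst2 and Samd9l were called lower against 0h and Ifitm3 higher. Eif2ak2 (ENSMUSG00000024079, chr17:78852564-78882573) encodes PKR, the kinase that halts translation on double-stranded RNA, and had 16.9, 11.8, 15.4 and 11.4 TPM at 0h, 7.67, 12.7, 8.73 and 9.68 TPM at 3h, 5.13, 8.60, 8.50 and 6.28 TPM at 24h, and 6.92, 8.50, 9.94 and 11.6 TPM at 7d. All 24h libraries lay below all 0h libraries. The log2 fold change at 24h was -0.76 (SE 0.17, adjusted p = 0.00461), lost with Myl7 as a covariate (adjusted p 0.238). Bst2 (ENSMUSG00000046718, chr8:71534255-71537456), which tethers budding virus to the cell surface and also marks plasmacytoid dendritic cells, had 101.4, 91.3, 92.3 and 61.1 TPM at 0h, 83.02, 66.3, 72.1 and 56.2 TPM at 3h, 36.8, 75.6, 44.9 and 38.4 TPM at 24h, and 64.6, 67.2, 90.8 and 100.9 TPM at 7d. Levels at 24h overlapped those at 0h through 24h replicate 2, and the log2 fold change was -0.63 (SE 0.19, adjusted p = 0.0306), lost without 0h replicate 1, 2 or 3 or 24h replicate 1, 3 or 4 (adjusted p 0.0589 to 0.102), and with Myl7 as a covariate (0.287).

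At 7d Bst2 was higher than at 24h by 0.63 (SE 0.19, adjusted p = 0.0459), a call lost without 24h replicate 1, 3 or 4 or 7d replicate 3 or 4 (adjusted p 0.0809 to 0.15), and by limma on log2(TPM + 1) (0.0506), with Myl7 as a covariate (0.53), without 3h replicates 2 and 3 together (0.0686) and in a fit of the compared groups alone (0.128). Markers of plasmacytoid dendritic cells (6 genes, Bst2 among them) summed to 51.1 to 93.6 TPM at 24h, against 89.0 to 133 TPM at 0h. Most of each sum was Bst2 itself, 36.8 of 51.1 TPM in 24h replicate 1 and 101.4 of 133 TPM in 0h replicate 1. The sums therefore largely restate the Bst2 values. The most selective gene of these cells, Siglech, had 0.0718, 0.0935, 0.607 and 0.252 TPM at 24h, against 0.738, 0.764, 0.780 and 1.36 TPM at 0h. The part of these cells in the Bst2 result was not tested.

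Samd9l (ENSMUSG00000047735, chr6:3372257-3399572), an interferon-induced inhibitor of translation, had 23.4, 21.1, 23.4 and 20.9 TPM at 0h, 9.35, 15.2, 16.1 and 10.8 TPM at 3h, 14.2, 19.3, 13.4 and 9.80 TPM at 24h, and 20.1, 9.66, 13.1 and 17.5 TPM at 7d. At 3h all 4 libraries were below those at 0h, with a log2 fold change of -0.62 (SE 0.18, adjusted p = 0.0478). It was lost without 0h replicate 1, 2, 3 or 4 or 3h replicate 1, 2 or 4 (adjusted p 0.0568 to 0.164), and with median-of-ratios scaling (0.0512), by limma on log2(TPM + 1) (0.0511) and with Myl7 as a covariate (0.0794). Ifitm3 (ENSMUSG00000025492, chr7:141009586-141010770), which blocks the entry of enveloped virus, had the highest level of the 44 genes, with 411, 302, 338 and 263 TPM at 0h, 447, 357, 350 and 340 TPM at 3h, 322, 509, 336 and 346 TPM at 24h, and 383, 381, 411 and 408 TPM at 7d. The groups overlapped, and its log2 fold change at 24h was 0.41 (SE 0.14, adjusted p = 0.0372). This call was lost without 0h replicate 2, 3 or 4 or 24h replicate 2 or 4 (adjusted p 0.0693 to 0.131), and by limma on log2(TPM + 1) (0.351), with Myl7 as a covariate (0.322) and in a fit of the compared groups alone (0.0623). The remaining type I effectors, Ifi27, Ifi35, Ifi44, Cmpk2, Rsad2, Rtp4, Xaf1, Oas1a, Oasl1, Oasl2 and Mx2, passed in no comparison in the edgeR fit of all libraries, with mean levels over the 16 libraries from 1.38 TPM (Mx2) to 59.0 TPM (Ifi27).

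**Figure D4:**
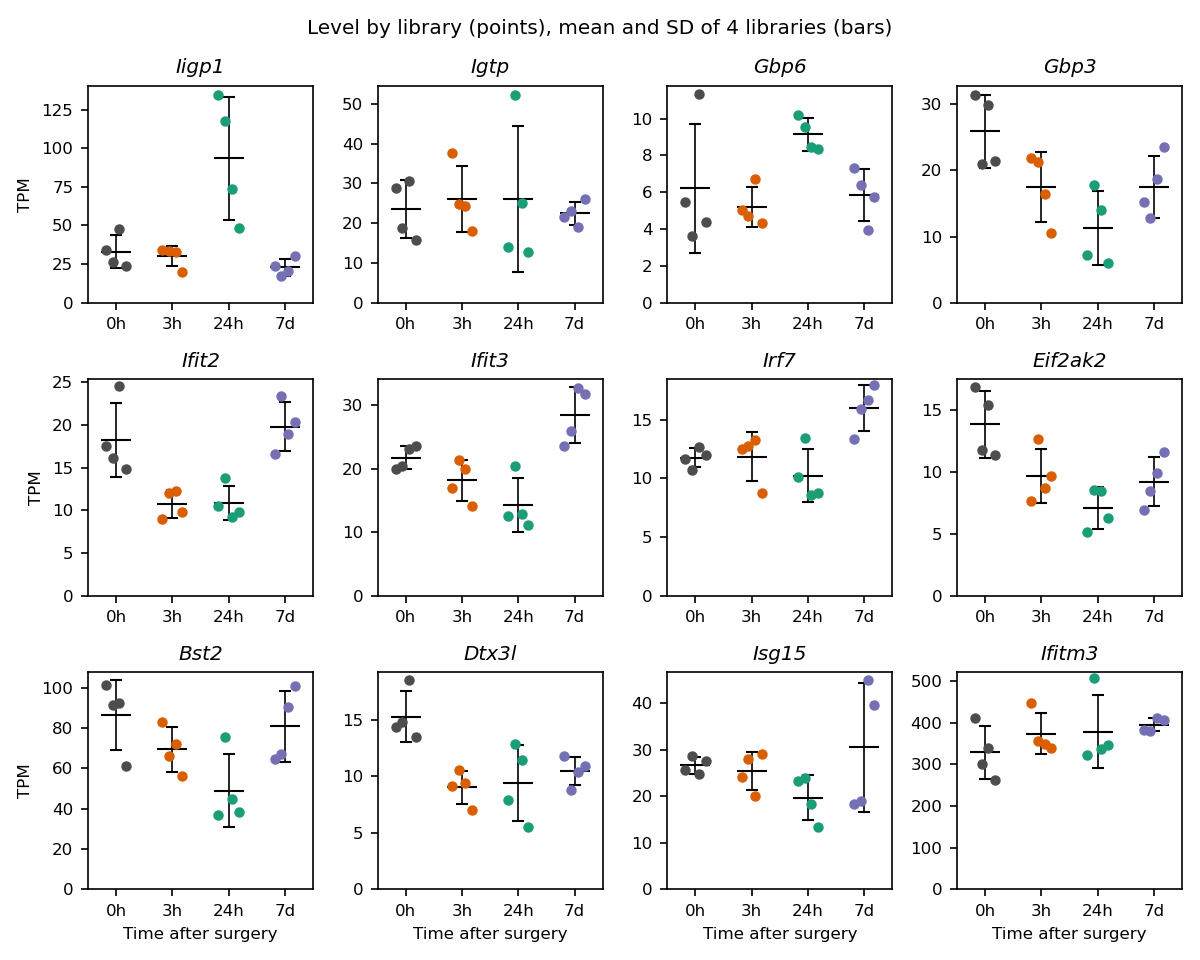
TPM (y axis, from 0) of 12 genes in each library (points), with the mean and SD of the 4 libraries of a time (bars). Iigp1 stands at 48.2 to 134 TPM at 24h, above every library of the other times, and Ifit2 is lower at 3h and 24h than at 0h and 7d.

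Of the sensors of foreign or displaced nucleic acid, Ifih1 (MDA5), Dhx58 (LGP2) and Zbp1, which binds left-handed nucleic acid, 0 were called in any comparison. Ifih1 had 6.14, 5.78, 5.77 and 4.11 TPM at 0h, 3.35, 4.85, 4.38 and 2.80 TPM at 3h, 4.43, 6.93, 4.42 and 2.44 TPM at 24h, and 4.37, 4.87, 4.67 and 5.24 TPM at 7d. The times overlapped throughout, and 24h replicate 2 held the highest of the 16 values. In the relay that sensors signal through, 15 genes were tested. At 3h 2 were higher than at 0h, Tlr7 (log2 fold change 0.77, SE 0.20, adjusted p = 0.028) and Sting1 (0.80, SE 0.24, adjusted p = 0.0491). At 24h 2 were lower, Traf3, an adaptor upstream of the kinase TBK1 (-0.95, SE 0.18, adjusted p = 0.00131), and Tlr3, a receptor for double-stranded RNA (-0.68, SE 0.14, adjusted p = 0.00284).

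The ISG15 and ADP-ribosylation group had 1 gene lower at 3h and at 24h, Dtx3l, and 0 higher against 0h. Dtx3l (ENSMUSG00000049502, chr16:35926511-35939151), a ubiquitin ligase that works in a complex with PARP9, had 14.3, 14.7, 18.5 and 13.4 TPM at 0h, 9.12, 10.5, 9.35 and 7.02 TPM at 3h, 7.89, 12.8, 11.4 and 5.46 TPM at 24h, and 11.7, 8.80, 10.4 and 10.9 TPM at 7d. All 8 libraries at 3h and 24h lay below the lowest at 0h, and so did all 4 at 7d. Its log2 fold change was -0.57 at 3h (SE 0.16, adjusted p = 0.0422) and -0.51 at 24h (SE 0.16, adjusted p = 0.0325), and -0.45 at 7d without passing. At 3h it was lost without 0h replicate 1, 2, 3 or 4 or 3h replicate 1, 2, 3 or 4 (adjusted p 0.0521 to 0.146), and with Myl7 as a covariate (0.146) and without 3h replicates 2 and 3 together (0.0966). At 24h it was lost without 0h replicate 2 or 3 or 24h replicate 1 or 4 (adjusted p 0.0616 to 0.112), and with Myl7 as a covariate (0.385) and in a fit of the compared groups alone (0.0698). Parp9, which lies head to head with Dtx3l on the opposite strand and overlaps it, had log2 fold changes of -0.13 at 3h and -0.27 at 24h and was not called, and reads of the overlap cannot be assigned with the strand setting unknown.

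Isg15, the ubiquitin-like protein that gives the group its name, had 25.6, 28.5, 24.7 and 27.6 TPM at 0h, 24.2, 27.9, 20.01 and 29.04 TPM at 3h, 23.1, 23.8, 18.4 and 13.3 TPM at 24h, and 18.2, 18.97, 45.001 and 39.7 TPM at 7d. At 7d the libraries split, with replicates 3 and 4 above all at 0h and replicates 1 and 2 below all at 0h, and the log2 fold change was 0.30 (SE 0.25, adjusted p = 0.585). Every 24h library lay below every 0h library in TPM, but the log2 fold change was -0.21 (SE 0.27, adjusted p = 0.62). Trim25 (ENSMUSG00000000275, chr11:88999376-89020293), the ubiquitin ligase known for its role beside the sensor RIG-I, had 29.6, 25.96, 28.6 and 19.9 TPM at 0h, 23.1, 34.3, 27.7 and 23.1 TPM at 3h, 20.1, 26.6, 21.3 and 18.8 TPM at 24h, and 23.4, 19.1, 17.7 and 22.7 TPM at 7d. Its 7d level was lower than at 3h by a log2 fold change of -0.47 (SE 0.12, adjusted p = 0.026), with 1 library at 7d inside the range at 3h. The call was lost without 3h replicate 2 or 3 or 7d replicate 2 or 3 (adjusted p 0.053 to 0.124), and by limma on log2(TPM + 1) (0.227), with Myl7 as a covariate (0.144) and without 3h replicates 2 and 3 together (0.301).

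At 24h 1 of the 6 guanylate-binding proteins was called lower than at 0h and 1 higher. Gbp3 (ENSMUSG00000028268, chr3:142560026-142573209) had 31.5, 20.99, 29.9 and 21.4 TPM at 0h, 21.9, 21.3, 16.5 and 10.5 TPM at 3h, 7.21, 17.8, 14.03 and 6.01 TPM at 24h, and 15.2, 12.7, 18.7 and 23.6 TPM at 7d. All 24h libraries were below all 0h libraries, and the log2 fold change was -1.03 (SE 0.28, adjusted p = 0.0187), lost without 0h replicate 1 or 24h replicate 1 or 4 (adjusted p 0.0592 to 0.075), and with no filter on low levels (0.0561) and with Myl7 as a covariate (0.376). Gbp6 (ENSMUSG00000104713, chr5:105270702-105293698) had 5.49, 3.64, 11.3 and 4.36 TPM at 0h, 5.04, 4.70, 6.73 and 4.31 TPM at 3h, 10.2, 9.56, 8.48 and 8.36 TPM at 24h, and 7.30, 6.41, 3.93 and 5.73 TPM at 7d. At 24h 4 libraries were above 3 of those at 0h, while 0h replicate 3 was the highest of all 16. Its log2 fold change at 24h was 0.81 (SE 0.26, adjusted p = 0.0366), lost without 0h replicate 1, 2 or 4 or 24h replicate 1, 2 or 4 (adjusted p 0.0515 to 0.117), and with no filter on low levels (0.086), by limma on log2(TPM + 1) (0.089), with Myl7 as a covariate (0.721), without 3h replicates 2 and 3 together (0.0535) and in a fit of the compared groups alone (0.0861). Reads of Gbp6 may be shared with its close relative Gbp10.

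Gbp9 (ENSMUSG00000029298, chr5:105077630-105139539), which overlaps Gbp4 and Gbp8 on the same strand, had 25.4, 19.8, 26.8 and 18.6 TPM at 0h, 10.4, 12.9, 13.2 and 10.1 TPM at 3h, 15.3, 26.7, 17.8 and 10.004 TPM at 24h, and 15.1, 11.96, 19.4 and 22.5 TPM at 7d. At 3h all 4 libraries lay below those at 0h, with a log2 fold change of -0.77 (SE 0.20, adjusted p = 0.0346). It was lost without 0h replicate 1, 2 or 3 or 3h replicate 1, 2, 3 or 4 (adjusted p 0.0541 to 0.103), and with no filter on low levels (0.0519), with Myl7 as a covariate (0.083) and without 3h replicates 2 and 3 together (0.0881). Gbp2, which recruits effectors to damaged vacuoles, was the most abundant, with 39.1, 31.6, 41.4 and 24.3 TPM at 0h, 25.9, 25.3, 22.6 and 23.6 TPM at 3h, 19.6, 45.2, 23.3 and 17.5 TPM at 24h, and 29.3, 22.8, 23.4 and 30.2 TPM at 7d. Values at 3h lay within the range at 0h or below it, and 24h replicate 2 held the highest of all 16. At 3h all 6 GBP genes had a negative log2 fold change (median -0.33), by edgeR and by limma on TPM, and 1 was called lower and 0 higher. All 4 IRG genes had a positive one at 3h by edgeR (median 0.17), as had 2 of the 4 by limma on TPM, and 0 were called. Without 24h replicate 2, 3 of the 6 GBP genes were called lower at 24h than at 0h and 0 higher, where 8.24% and 10.3% of all genes were called.

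Among the 4 IRGs, 1 was called. Iigp1 (ENSMUSG00000054072, chromosome 18), an effector IRG that loads onto parasite vacuoles, had 34.02, 26.4, 47.3 and 23.9 TPM at 0h, 34.3, 33.3, 32.7 and 20.1 TPM at 3h, 134, 118, 73.3 and 48.2 TPM at 24h, and 23.8, 17.5, 20.2 and 30.01 TPM at 7d. Each 24h library exceeded every library of the other 3 times. The log2 fold change at 24h was 1.73 against 0h (SE 0.31, adjusted p = 0.00244) and 1.66 against 3h (SE 0.30, adjusted p = 0.0053). At 7d it was -2.16 against 24h (SE 0.31, adjusted p = 0.000877) and -0.43 against 0h, which did not pass. These 3 calls remained when any single library was left out. With Myl7 as a covariate the call against 0h was lost (log2 fold change 1.54, adjusted p = 0.147), as was that at 7d against 24h (-1.94, adjusted p = 0.164), and the call against 3h was lost without 3h replicates 2 and 3 together (adjusted p = 0.0641).

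Irgm1, Irgm2 and Igtp are regulatory IRGs that keep the effectors from loading onto the cell's own membranes. Irgm1 had 16.6, 10.6, 16.03 and 10.3 TPM at 0h, 15.7, 12.7, 16.4 and 10.5 TPM at 3h, 9.28, 17.3, 10.005 and 8.71 TPM at 24h, and 11.98, 11.6, 12.6 and 16.1 TPM at 7d. Igtp, also known as Irgm3, had 28.8, 18.9, 30.6 and 15.8 TPM at 0h, 37.5, 24.7, 24.2 and 17.9 TPM at 3h, 14.1, 52.2, 25.1 and 12.7 TPM at 24h, and 21.6, 22.97, 19.1 and 26.1 TPM at 7d. Of these 3 regulators 0 were called in any comparison. At 24h Igtp ran from 12.7 to 52.2 TPM, wider than its 15.8 to 30.6 TPM at 0h, with the top value in replicate 2. Igtp and Irgm2 overlap on the same strand in GENCODE M21, so their reads may be shared.

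The ratio of Iigp1 to Igtp TPM, a value taken within each library, was 9.56, 2.26, 2.92 and 3.81 at 24h, against 1.18, 1.40, 1.55 and 1.52 at 0h. At 3h the ratio was 0.914 to 1.35 and at 7d 0.763 to 1.15. Every 24h library exceeded every other library, and the ratio in replicate 2, where both genes were high, was the lowest of the 4. The ratio of Iigp1 to Irgm1 was 5.53 to 14.5 at 24h, against 2.05 to 2.95 at 0h. Of the 10 GBP and IRG genes together, 2 were higher and 1 lower at 24h against 0h, with a median log2 fold change of -0.11, and 1 was lower at 7d against 24h. Of all genes, 9.53% were called higher and 8.62% lower at 24h against 0h, and 4.6% lower at 7d against 24h.

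Of other interferon-stimulated genes outside the 44, 49 of 53 were tested. At 3h 5 were higher than at 0h and 0 lower, at 24h 1 was higher and 8 lower, and at 7d 0 were higher and 1 lower. Of all genes, 2.01% were called higher and 3.3% lower at 3h, and 9.53% higher and 8.62% lower at 24h. At 7d it was 0.219% higher and 0.901% lower. Counts against 0h of the role groups and other lists, above and below, stand against the same shares in the fit of all libraries. Apobec3, a deaminase that restricts retroviruses, had 11.2, 11.2, 8.41 and 7.62 TPM at 3h, against 5.12, 5.68, 5.90 and 3.20 TPM at 0h. The groups did not overlap, and its log2 fold change was 1.15 (SE 0.18, adjusted p = 0.00133). Ifi211 (1.10, SE 0.22, adjusted p = 0.00622), Ifi207 (1.40, SE 0.28, adjusted p = 0.0112) and Ifi205 (1.09, SE 0.29, adjusted p = 0.046), DNA-binding proteins of the PYHIN family, were also higher at 3h, as was Ifitm2 (0.79, SE 0.20, adjusted p = 0.032). Apobec3, Ifi211 and Ifi207 were lower at 24h than at 3h, by log2 fold changes of -1.05, -1.21 and -1.12.

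Ifitm1, a relative of Ifitm3, had 16.4, 33.8, 22.5 and 28.1 TPM at 24h, against 7.98, 10.3, 6.55 and 6.01 TPM at 0h. All 24h libraries were higher, and the log2 fold change was 1.90 (SE 0.40, adjusted p = 0.00428). Of the 8 that were lower at 24h, those of smallest p were Slfn5, a growth regulator of the Schlafen family (-0.64, SE 0.14, adjusted p = 0.00408), and Ifi203 (-0.72, SE 0.17, adjusted p = 0.00792). Helz2, a nuclear receptor coactivator, was the one gene lower at 7d than at 0h (-0.62, SE 0.13, adjusted p = 0.0228).

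MHC class I genes and the immunoproteasome (16 genes) showed 1 call against 0h, the proteasome activator Psme2, higher at 24h by 0.39 (SE 0.13, adjusted p = 0.0452). The immunoproteasome subunit Psmb10 was higher at 7d than at 24h by 0.55 (SE 0.12, adjusted p = 0.00709). Of the chemokines induced by interferon, 3 were tested. Cxcl9, which interferon gamma induces in macrophages, had 1.37, 4.72, 5.65 and 1.98 TPM at 24h, against 12.1, 8.47, 12.1 and 6.87 TPM at 0h. The 24h libraries were all lower, with a log2 fold change of -1.36 (SE 0.38, adjusted p = 0.0224). Cxcl10, a chemokine that both interferon types induce, stayed at 0 to 1.12 TPM at 24h and 0.670 to 1.005 TPM at 0h and was not called.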

How the data were processed

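The left ventricular libraries were treated with cutadapt and STAR and the mouse build mm10, per the submitters' processing notes. The counting tool, its strand setting, the annotation and all versions were not given in the sources used here. The authors deposited 1 table with raw counts per gene and library, which are whole numbers, and TPM (transcript abundance scaled to gene length and library size). Its 16 columns of FPKM were not used. Columns were matched to samples by time and number, their prefix being another than in the sample titles. Coordinates come from GENCODE M21 (GRCm38) by gene ID and promoters from RefSeq (GRCm38.p6).

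Counts of the 16866 genes (of 57143) whose TPM averaged at least 0.5 across the 16 libraries entered the quasi-likelihood F test of edgeR (glmQLFit, robust, legacy = FALSE; TMM scaling, all libraries in 1 fit, no block). Benjamini-Hochberg adjustment ran separately in each of 6 comparisons and in a test of any change over time, and the threshold was 0.05. SDs are over the 4 libraries of a time. SEs were worked back from the log2 fold change and the F value of the test, in the fit of all 16 libraries. Depth was 8313655 to 12893551 counts a library; on log2 CPM, Pearson's r across genes was 0.975 to 0.987 within times and 0.964 to 0.987 between them. The tools were DESeq2 1.42.0, limma 3.58.1 and edgeR 4.0.16 under R 4.3.3, and the edgeR fit was tested on simulated data.

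The 44 genes, the lists and the tests were chosen with earlier results of these data known. Any of the 44 could be named; values of every library are given for called genes (up to 6 of smallest p a role), the most abundant gene of each role and 8 others set by name. From each pathway list up to 4 called genes of smallest p could be named a comparison; Cxcl10, Siglech, Ly6g, Alb and Myl7 were named as single values. Alternatives were median-of-ratios scaling, no filter, DESeq2, limma on log2(TPM + 1), a replicate block, Myl7 as covariate, fits of the compared times alone, and leaving out each library or 3h replicates 2 and 3 together.

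Of the 44 genes, 19 overlap another gene in GENCODE M21, 8 of them on the same strand, and genes with near copies (Ifit3 and Ifit3b, Gbp6, Oas1a, Iigp1) share reads the counting may have split, so their values are uncertain to that extent.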

Additional observations from a re-analysis of the deposited data

Results flagged for a closer look

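In groups of 4 libraries, 1 value was set apart from the other 3 by Dixon's test (ratio above 0.829) in 13 of the 176 gene and time groups, 7.39%, where chance gives about 1 in 20. In 24h replicate 2, 5 genes were set apart upward: Oas2 at 12.3 TPM (others 5.02 to 6.07), Xaf1 at 8.63 TPM (others 4.95 to 5.28), Dhx58 at 3.48 TPM (others 1.65 to 1.86), Irgm1 at 17.3 TPM (others 8.71 to 10.005) and Ifitm3 at 509 TPM (others 322 to 346). In 3h replicate 4, 4 genes were set apart downward: Irf7 at 8.77 TPM (others 12.5 to 13.3), Rtp4 at 9.87 TPM (others 15.2 to 15.7), Xaf1 at 6.14 TPM (others 7.93 to 8.24) and Iigp1 at 20.1 TPM (others 32.7 to 34.3).

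The other 4 lay in different libraries. Oas1a was 7.00 TPM in 3h replicate 2 (others 5.42 to 5.68), and Ifitm3 was 447 TPM in 3h replicate 1 (others 340 to 357). Oas2 stood at 10.2 TPM in 0h replicate 3 (others 7.77 to 8.02), and Ifi44 at 2.20 TPM in 0h replicate 4 (others 2.77 to 2.85). In 3h replicate 4, 33 of the 44 genes had their lowest TPM of that time, a count not made over all genes tested.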

How the results depend on the processing

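The 22 calls of single genes kept their direction under all alternatives, with 243 of 374 alternative values past the threshold, 131 not, and 0 reversed. Ifit2 at 7d against 24h and at 7d against 3h passed in all 17 alternatives each, and the 22 calls all passed with DESeq2 and with an older variance estimate of edgeR, which was chosen after seeing the data. Calls over all genes also moved between fits, so the counts below do not by themselves single out these genes. Counts of called genes (main value first) moved as follows, and the cause was not tested. At 3h against 0h, 4 genes became 2 with the replicate block, 1 with Myl7 as covariate, 1 without 3h replicates 2 and 3 together and 9 (3 higher and 6 lower, against 0 higher and 4 lower) in a fit of the 2 times alone; without 0h replicate 3 it was 1 higher and 0 lower, and by DESeq2 1 higher and 4 lower. At 24h against 0h, 8 became 13 by limma on log2(TPM + 1), 0 with Myl7 as covariate and 5 in a fit of those times alone. At 7d against 0h, 0 became 1 by DESeq2 and 2 in a fit of those times alone. At 24h against 3h, 1 became 2 with no filter, 4 by DESeq2, 2 with the replicate block, 0 without 3h replicates 2 and 3 together and 2 in a fit of those times alone. At 7d against 24h, 5 became 3 with the replicate block and 1 with Myl7. At 7d against 3h, 4 became 1 by limma, 2 with the replicate block, 1 with Myl7 and 1 without the 2 libraries at 3h. For any change over time, 10 became 16 by DESeq2, 6 with the replicate block, 2 with Myl7 and 6 without the 2 libraries at 3h. Leaving out 1 library at a time gave 0 to 2 at 3h and 2 to 14 at 24h against 0h, 0 to 0 at 7d against 0h, 1 to 5 at 24h against 3h, 3 to 6 at 7d against 24h, 1 to 4 at 7d against 3h and 5 to 16 for any change. Same-numbered libraries did not deviate together (correlations from -0.122 to 0.055, 0 of 24 above 0.1), so the numbers do not pair the samples; with the replicate block 6 of the 22 calls missed the threshold (Gbp9 and Samd9l at 3h, Irf7 and Bst2 at 7d against 24h, Ifit3 and Oas2 at 7d against 3h; adjusted p 0.0511 to 0.0872). Limits are the 4 libraries a time, low counts of Mx1, Mx2 and Zbp1, and the spread at 24h, where the highest library was a median of 2.16 times the lowest, against 1.49 times at 0h.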
